A study of Mus musculus with 3 samples.

Results

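The regulators described here are 10 genes of hematopoietic stem and progenitor cells other than Runx1, namely Myb, Meis1, Hlf, Gfi1, Ikzf1, Ikzf2, Mecom, Bmi1, Msi2 and Cbfa2t3. They were taken as all 16 probes that carry those gene names on the array, of 55681 probes in all. Of the 10 genes, 9 had at least 1 probe bright enough to test and Mecom had none. RNA came from yolk sac cells sorted for both VE-cadherin, which joins endothelial cells, and CD45, carried by leukocytes. The tested cells were from Tie-2-Etv2 embryos (2 arrays, replicates 1 and 2), in which a transgene for the ETS transcription factor Etv2 was switched on by Cre under the Tie-2 promoter, and were set against cells from Control embryos (1 array). Tie-2, encoded by Tek, is expressed by endothelial cells and by early hematopoietic cells, so Cre recombination is not limited to a single lineage. Both groups were of a mixed strain (B6/CBA and others) and received nothing after sorting. The Control embryos were at E10.5, while the labels used here give no stage for the Tie-2-Etv2 embryos, do not say whether the Control embryos carried either transgene alone, and do not say whether embryos were pooled. Each sample was hybridised to its own array, and the number of arrays limits the precision of all values.

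Blood cells of the yolk sac arise in waves, and later waves come from hemogenic endothelium, which switches off endothelial genes and turns on a set of transcription factors and chromatin regulators. Myb and Meis1 are needed for definitive hematopoiesis, whereas early yolk sac macrophages form without Myb. Ikzf1 and Ikzf2 (Ikaros and Helios) are zinc finger factors of lymphoid and stem cells, Gfi1 and Cbfa2t3 (ETO2) act as repressors with chromatin-modifying partners, Bmi1 is a Polycomb protein, Msi2 an RNA-binding protein, and Hlf and Mecom (Evi1) are transcription factors associated with stem cells.

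Well above background were 24218 and 27018 probes on the Tie-2-Etv2 replicate 1 and replicate 2 arrays, against 25464 on the Control array. Signal was expressed as log2 relative to the 75th percentile of probes detected on all 3 arrays, which stood at 1199 and 2092 intensity units on the Tie-2-Etv2 arrays and at 2073 on the Control array. Levels below are on that scale, and a difference is Tie-2-Etv2 minus Control. As a check of the labels, Etv2 differed by 4.42 and 3.22 on replicates 1 and 2. Cdh5, which encodes VE-cadherin, was detected on all 3 arrays and differed by 4.46 and 2.60. Its levels were 0.39 and -1.48 in Tie-2-Etv2 cells and -4.08 in Control cells, although both groups are labelled as VE-cadherin positive. Ptprc, which encodes CD45, was also detected on all 3 arrays and differed by -0.42 and -0.50.

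Meis1, Myb and Ikzf2 were at least 2-fold higher than in Control cells on both Tie-2-Etv2 arrays, and Hlf was at least 2-fold lower on both. Cbfa2t3, Ikzf1, Bmi1 and Msi2 were above Control on both arrays by less than 2-fold on at least 1 of them, Gfi1 lay on opposite sides of Control on the 2 arrays, and Mecom was not detected on any array. Thus 3 of 9 tested regulators were 2-fold higher, where the same count over all 19580 genes tested was 3.92%. For 2-fold lower it was 1 of 9, against 6.64%. The brightest probe of each of the 9 was well above background on all 3 arrays, whereas the 19580 genes include some dim in either group. Among the 17228 genes with that call on all 3 arrays, 502 were 2-fold higher and 593 lower. With both arrays above Control by any amount were 7 of 9 regulators, against 42.5% of all genes. The median log2 difference was 0.67 over the 9 regulators (0.88 on replicate 1, 0.46 on replicate 2) and 0.07 over all genes. None of the regulators, and none of the 19580 genes, had an adjusted p under 0.05 when limma was fitted across all probes (0% called). At an unadjusted p under 0.05 were 4 of the regulators and 2110 genes, or 10.8%. That test had 1 residual degree of freedom, from the Tie-2-Etv2 pair, and took the lone Control array to vary as that pair did. To this limma added 2.92 prior degrees of freedom, drawn from the variance of all tested probes. Its standard errors, intervals and p-values therefore rest largely on that pooled variance.

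**Figure D1:**
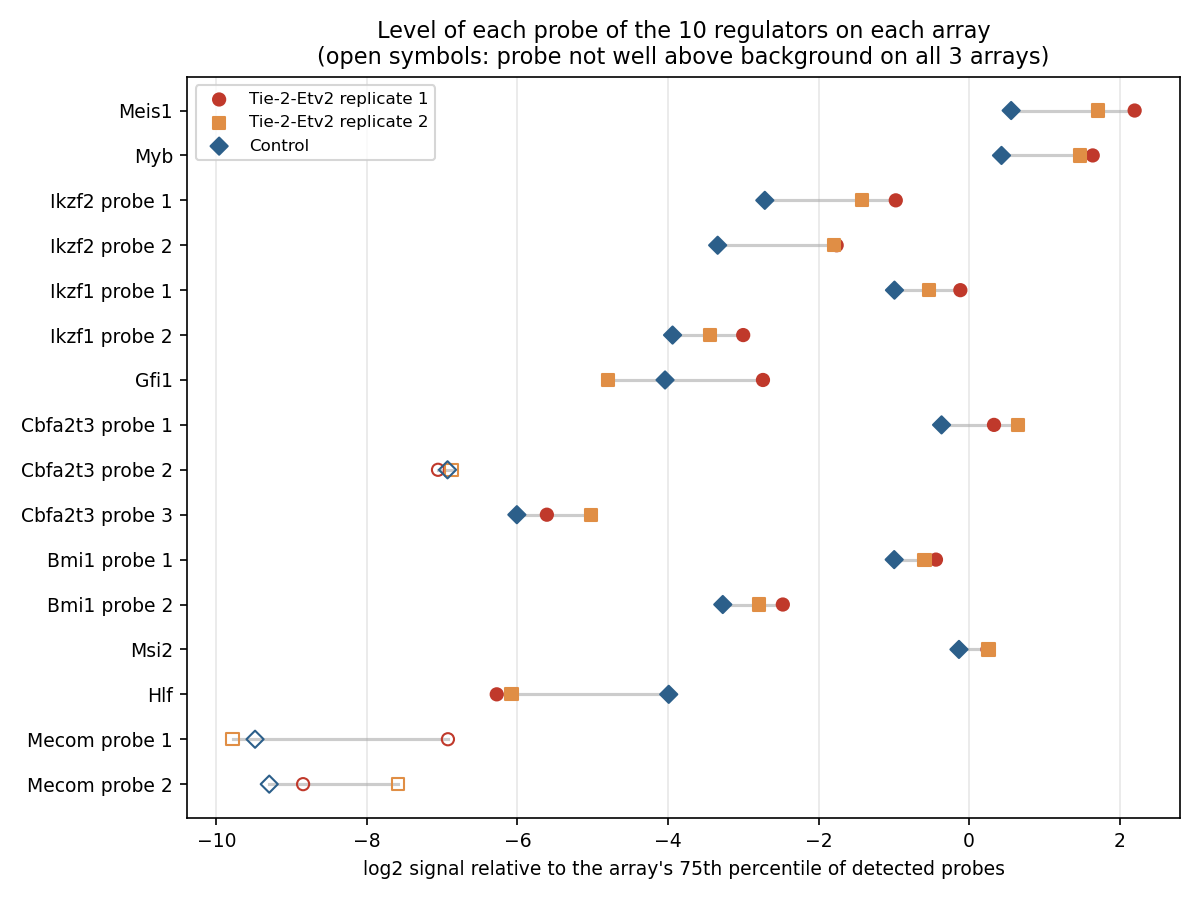
Level of each probe of the 10 regulators on each array, as log2 signal relative to the array's 75th percentile of detected probes. Circles are Tie-2-Etv2 replicate 1, squares Tie-2-Etv2 replicate 2 and diamonds Control; probe 1 of a gene is the brightest, and open symbols mark the 1 Cbfa2t3 and 2 Mecom probes not detected on all arrays. Both Tie-2-Etv2 symbols lie above Control for Meis1, Myb and Ikzf2 and below it for Hlf.

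Meis1 encodes a homeodomain protein that binds DNA together with Pbx factors. Its probe, in chromosome 11 at 18780695 to 18780754 on the minus strand (mm9), had intensities of 5503 and 6858 on the Tie-2-Etv2 arrays, against 3054 on the Control array. After scaling its level was 2.20 on replicate 1 and 1.71 on replicate 2, a mean of 1.96 ± 0.34 (SD, n = 2), against 0.56 in Control cells. Both Tie-2-Etv2 arrays lay above Control, with folds of 3.12 and 2.22. The log2 difference of 1.40 had a standard error of 0.38 and a 95% interval of 0.32 to 2.47, and limma's adjusted p was 0.358. Of all genes tested, 511, Meis1 included, lay at least as far above Control on both arrays.

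Myb encodes a transcription factor required for the expansion of definitive progenitors. Its probe, in chromosome 10 at 20844736 to 20844795 on the minus strand, gave intensities of 3741 and 5814 in Tie-2-Etv2 cells and 2794 in Control cells. The levels were 1.64 and 1.47 on the Tie-2-Etv2 arrays, a mean of 1.56 ± 0.12 (SD, n = 2), and 0.43 on the Control array. The replicates were close to each other, and both exceeded 2-fold by a small margin, at 2.32-fold and 2.06-fold. The log2 difference was 1.13, with a standard error of 0.33 and a 95% interval of 0.21 to 2.04, and limma's adjusted p was 0.378.

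Ikzf2 encodes Helios, a member of the Ikaros zinc finger family. Its brighter probe, in chromosome 1 at 69584008 to 69584067 on the minus strand, read 610 and 782 intensity units on the Tie-2-Etv2 arrays, against 316 on the Control array. Levels were -0.97 and -1.42 in Tie-2-Etv2 cells and -2.71 in Control cells, 3.34-fold and 2.45-fold higher. A second probe, at 69577853 to 69577912, had levels of -1.76 and -1.80 in Tie-2-Etv2 cells and -3.34 in Control cells. Both probes placed both Tie-2-Etv2 arrays above Control, and their log2 differences of 1.52 and 1.56 were 0.05 apart, where the median gap over the 3616 genes with exactly 2 tested probes was 0.225. The 95% interval of the brighter probe was 0.47 to 2.56, and limma's adjusted p was 0.327 for it and 0.275 for the other.

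Hlf encodes a transcription factor of the PAR bZIP family that marks stem cells and their precursors. It was read by 1 probe, in chromosome 11 at 90200696 to 90200755 on the minus strand. Intensities were 15.5 and 30.9 on the Tie-2-Etv2 arrays and 130 on the Control array, and the levels were -6.27 and -6.08, a mean of -6.18 ± 0.14 (SD, n = 2), against -3.99 in Control cells. The 2 Tie-2-Etv2 arrays differed from each other by 0.20 and lay 4.87-fold and 4.25-fold below Control. The log2 difference of -2.19 had a standard error of 0.33 and a 95% interval of -3.11 to -1.26, and limma's adjusted p was 0.235. Of all genes tested, 381, Hlf included, lay at least as far below Control on both arrays. The probe was called well above background on all 3 arrays, and the lowest levels with that call were -6.83 and -7.54 on the Tie-2-Etv2 arrays and -7.23 on the Control array. Normexp background correction, with an offset of 50 intensity units, gave a log2 difference of -0.85, short of 2-fold. That offset is larger than both Tie-2-Etv2 intensities of Hlf and shrinks differences between dim signals. This alternative therefore cannot tell whether the Hlf difference depends on background.

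**Figure D2:**
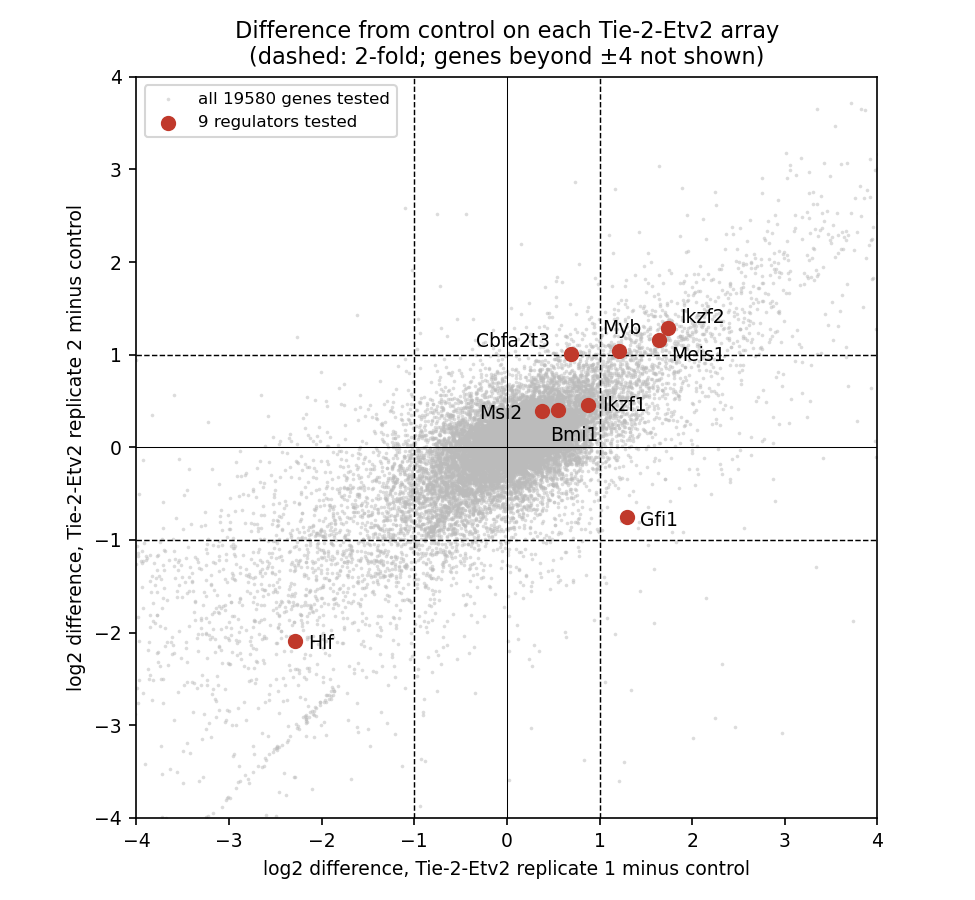
Log2 difference from Control on Tie-2-Etv2 replicate 1 (horizontal) and replicate 2 (vertical) for the 9 tested regulators (large points) and all 19580 genes tested (small points, those beyond 4 in either direction not drawn), with dashed lines at 2-fold. Meis1, Myb and Ikzf2 lie beyond 2-fold on both axes at the upper right, Hlf at the lower left, and Gfi1 at 1.30 and -0.75.

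Promoter sequence is shown for Meis1 and Hlf as a regulator that was higher and the one that was lower, and for Gfi1 because its replicates lay on either side of Control. The sequences are RefSeq's, on build GRCm38.p6, from 250 bases before to 50 bases after the annotated start. Capitals mark CCGGAAG on either strand, a 7-letter sequence bound by ETS factors.
Meis1 promoter, chr11:19018920-19019219, minus strand: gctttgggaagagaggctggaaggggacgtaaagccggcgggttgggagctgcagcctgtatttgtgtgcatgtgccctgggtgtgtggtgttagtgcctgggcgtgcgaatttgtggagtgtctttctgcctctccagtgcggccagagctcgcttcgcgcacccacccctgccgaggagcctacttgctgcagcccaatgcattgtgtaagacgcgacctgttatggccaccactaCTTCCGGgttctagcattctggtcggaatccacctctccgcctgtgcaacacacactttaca
Hlf promoter, chr11:90390868-90391167, minus strand: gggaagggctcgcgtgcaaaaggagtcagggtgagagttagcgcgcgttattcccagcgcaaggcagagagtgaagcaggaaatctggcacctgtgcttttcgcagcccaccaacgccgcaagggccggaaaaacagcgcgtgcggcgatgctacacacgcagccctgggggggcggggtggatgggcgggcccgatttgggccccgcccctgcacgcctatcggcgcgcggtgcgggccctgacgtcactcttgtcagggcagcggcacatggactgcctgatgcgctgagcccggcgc
Gfi1 promoter, chr5:107724294-107724593, minus strand: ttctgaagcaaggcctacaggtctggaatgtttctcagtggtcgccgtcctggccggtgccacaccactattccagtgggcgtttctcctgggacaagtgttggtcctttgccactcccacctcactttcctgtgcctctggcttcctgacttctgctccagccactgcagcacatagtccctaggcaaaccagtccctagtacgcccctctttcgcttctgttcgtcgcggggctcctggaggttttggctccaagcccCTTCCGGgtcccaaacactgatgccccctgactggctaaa
Each of the Meis1 and Gfi1 sequences holds 1 match, on the strand opposite to the gene, whose first printed base lies 12 bases before the start of Meis1 and at base 11 of the Gfi1 transcript. The Hlf sequence holds none, and neither does the other Gfi1 promoter in the table, at chr5:107725756-107726055, which is not printed. The 4-letter ETS core GGAA was present on either strand in 96% of all promoters in the RefSeq table and therefore separates few of them. CCGGAAG, which contains that core, was found in 8.86% of the 32851 promoters and in 2 of the 15 promoters listed for 9 of the 10 regulators. Both of these 2 are printed above. Of the other regulators that were 2-fold higher, Myb had no match in its promoter at chr10:21160935-21161234, and Ikzf2 had no entry. A match of letters is a description and not a measured binding site.

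Ikzf1 encodes Ikaros, which is needed for lymphoid development and is active in early progenitors. Its brighter probe, in chromosome 11 at 11672828 to 11672887, had levels of -0.12 and -0.53 in Tie-2-Etv2 cells, against -0.99 in Control cells. The second probe, whose sequence is printed with those of Cbfa2t3 and Mecom, read 150 and 193 intensity units in Tie-2-Etv2 cells and 135 in Control cells. Both probes were above Control on both arrays, by 1.83-fold and 1.38-fold for the brighter and 1.92-fold and 1.41-fold for the other. The log2 differences of 0.67 and 0.72 had standard errors of 0.37 each, and limma's adjusted p was 0.673 and 0.648. Neither difference passed limma's adjusted test, whose standard errors rest largely on the variance of all tested probes. Whether either difference exceeds the spread of the Tie-2-Etv2 pair alone was not tested.

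Cbfa2t3 encodes the corepressor ETO2, which joins Tal1 and Ldb1 complexes in erythroid and megakaryocytic progenitors. Its brightest probe, annotated to transcript variant 1 and lying in chromosome 8 at 125154010 to 125154069, had levels of 0.33 and 0.65 in Tie-2-Etv2 cells and -0.37 in Control cells. That was 1.62-fold and 2.02-fold higher, so only replicate 2 reached 2-fold, and limma's adjusted p for the log2 difference of 0.85 ± 0.35 (SE) was 0.534. Both other probes were annotated to variant 2. The one at base 992 of the transcript read 24.6 and 64.3 intensity units in Tie-2-Etv2 cells and 32.2 in Control cells, with log2 differences of 0.40 and 0.98 after scaling. The one at base 4484 read 9.01 and 17.8 in Tie-2-Etv2 cells and 17.0 in Control cells, was not well above background on replicate 1, and differed by -0.13 and 0.05. The 3 probes thus spanned 0.89 on the log2 scale, and the probe at base 4484 did not share the higher values of the others.

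Gfi1 encodes a zinc finger repressor that helps silence endothelial genes as blood cells form. Its probe, in chromosome 5 at 108145719 to 108145778, read 180 and 75.4 intensity units on the Tie-2-Etv2 arrays and 126 on the Control array. The levels were -2.74 on replicate 1 and -4.79 on replicate 2, with Control between them at -4.04. The mean of -3.77 ± 1.45 (SD, n = 2) therefore overlaps Control. Replicates 1 and 2 were 2.06 apart on the log2 scale, a gap exceeded by 2.45% of all genes, whose median gap was 0.315. Limma's adjusted p was 0.972, and no direction can be given for Gfi1.

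Bmi1 and Msi2 are regulators of self-renewal, the first as part of Polycomb repressive complex 1 and the second through translation of its target mRNAs. The brighter Bmi1 probe, in chromosome 2 at 18607531 to 18607590, had levels of -0.44 and -0.59 in Tie-2-Etv2 cells and -0.99 in Control cells. The dimmer one, at 18607987 to 18608046, had levels of -2.47 and -2.79 in Tie-2-Etv2 cells and -3.27 in Control cells. All 4 values of Bmi1 in Tie-2-Etv2 cells were above Control, by 1.32-fold to 1.74-fold, with 95% intervals of -0.43 to 1.39 and -0.33 to 1.61 that include no difference. Msi2, in chromosome 11 at 88152912 to 88152971, had levels of 0.24 and 0.26 in Tie-2-Etv2 cells and -0.13 in Control cells, 1.30-fold and 1.31-fold higher. Its replicates were 0.01 apart, closer than those of 97.7% of genes, and the 95% interval of the difference was -0.51 to 1.28. Limma's adjusted p was 0.766 for the brighter Bmi1 probe and 0.837 for Msi2. A probe annotated in the files as a Musashi 2-like transcript, which RefSeq now assigns to Msi2, lies outside the set by name and was well above background on 0 of 3 arrays.

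Mecom, the locus of Evi1 and of its longer MDS1 form, had 2 probes on chromosome 3. The probe at 29876185 to 29876244 read 9.88 and 2.37 intensity units in Tie-2-Etv2 cells and 2.89 in Control cells. The probe at 30135491 to 30135550 read 2.60 and 10.9 units in Tie-2-Etv2 cells and 3.30 in Control cells. All 6 values lay below the lowest signal called well above background on the same array. Mecom was therefore not well above background in any sample, and no fold is given. Its relative Prdm16 was not tested either, for the same reason of dim signal.

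Probe sequence is printed for Ikzf1, Cbfa2t3 and Mecom, each read by more than 1 probe, to show which stretch of the transcript was measured. The Ikzf1 probe starts at base 1726 of its transcript and placed both Tie-2-Etv2 arrays above Control, as did the probe at base 5061. The Cbfa2t3 probe starts at base 992 of variant 2, and the Mecom probe at base 1829 of its transcript. Sequences are those of the array, with coordinates on mm9 and no part in capitals.
Ikzf1 probe, chr11:11669493-11669552, plus strand: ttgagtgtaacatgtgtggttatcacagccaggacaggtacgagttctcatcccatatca
Cbfa2t3 probe, chr8:125162758-125162817, minus strand: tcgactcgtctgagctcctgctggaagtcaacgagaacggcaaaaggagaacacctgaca
Mecom probe, chr3:29876185-29876244, minus strand: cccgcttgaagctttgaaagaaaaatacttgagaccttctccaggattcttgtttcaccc
Of the 16 probes, 13 were well above background on all 3 arrays, 1 on 2 arrays and 2 on none.

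Partners, relatives and reported targets of the regulators were described in 15 lists of 98 genes, of which 92 had a tested probe. Of these 92, 4 were at least 2-fold higher on both Tie-2-Etv2 arrays (4.35%, against 3.92% of all genes) and 6 at least 2-fold lower (6.52%, against 6.64%), with a median of 0.23 and with 0 passing limma's adjusted test. These shares are close to those of all genes.

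A pair of lists holds factors that work beside the regulators in progenitors. Of 12 other stem and progenitor transcription factors, Erg, an ETS factor, was 2-fold higher on both arrays, with levels of -2.56 and -2.92 in Tie-2-Etv2 cells and -4.59 in Control cells. The median of that list was 0.73, and 0 of 12 were 2-fold lower. Runx1 itself, the central factor of blood cell emergence, differed by 0.39 and 0.42 (levels of 1.40 and 1.43 in Tie-2-Etv2 cells and 1.01 in Control cells); it was singled out after its values were seen. Of 10 genes of the ETO family and the Tal1-Ldb1 complex, Gata2, a factor of stem cell emergence, was 2-fold higher, with levels of 1.53 and 0.84 in Tie-2-Etv2 cells and -0.84 in Control cells. None of the other 9 reached 2-fold on both arrays, and the list's median was 0.32. Limma's adjusted p was 0.262 for Erg and 0.289 for Gata2.

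Gfi1b, the relative of Gfi1 in erythroid and megakaryocytic cells, was 2-fold higher on both arrays. Its levels were 0.80 and 0.60 in Tie-2-Etv2 cells and -0.98 in Control cells, 3.42-fold and 2.99-fold higher. The log2 difference was 1.68 ± 0.33 (SE), and limma's adjusted p was 0.268. The 6 genes of the LSD1-CoREST corepressor through which both Gfi1 proteins act were all within 2-fold of Control. Genes reported as repressed by Gfi1 formed a list of 7 that holds Gfi1 and Gfi1b themselves. Of these, 3 were 2-fold lower and 1, Gfi1b, higher, with a median of -1.59. Over all genes tested, 6.64% were 2-fold lower and 3.92% higher. The early growth response gene Egr2 had levels of -4.40 and -4.31 in Tie-2-Etv2 cells and -2.26 in Control cells. Csf1, which encodes a macrophage growth factor, had levels of -4.89 and -3.85 in Tie-2-Etv2 cells and -2.37 in Control cells. Nab2, an Egr corepressor named only because it completes the count, differed by -3.43 and -1.40.

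Of 8 genes reported to depend on Myb, Mpo, which encodes myeloperoxidase of granule-forming myeloid cells, was 2-fold higher, with levels of 5.22 and 5.46 in Tie-2-Etv2 cells and 4.16 in Control cells. A second Mpo probe differed by 0.51 and 1.49 and so was not 2-fold higher on replicate 1. Mpo is also among the granulocyte and mast cell markers described further on. The list's median was 0.70 and 0 of 8 were 2-fold lower. Cd34 and Kit, stem and progenitor surface antigens chosen after their values were seen, differed by 1.13 and 0.85 and by 0.73 and 0.77 on replicates 1 and 2. Of the others, Myc differed by 0.49 and 0.80, and Ctsg, not well above background in Control cells, by 2.20 and 0.61. The survival gene Bcl2 differed by -0.97 and -0.25 and the neutrophil elastase gene Elane by -0.06 and -0.22. The proteinase gene Prtn3 differed by -1.18 and 0.87, so the list did not move one way. In the list of Myb relatives and coactivators 0 of 3 tested genes were 2-fold apart, and Mybl2, which acts in the cell cycle, differed by 0.26 and 0.50.

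The relatives and partners of Meis1, Ikzf1 and Ikzf2, Msi2 and Bmi1 mostly stayed within 2-fold of Control. Of 6 tested homeodomain partners of Meis1 none was 2-fold apart on both arrays, and Meis2, which differed by -0.94 and -3.87, was well above background on the Control array alone and differed by -0.20 with normexp. Neither the 3 other Ikaros family genes, of which Ikzf4 differed by 0.50 and 1.01, nor the 11 NuRD genes, of which Mbd2 differed by -0.65 and -0.31, were 2-fold apart. The brightest Ikzf4 probe and its other probes disagreed in sign. Numb, a target of Musashi proteins, differed by 0.92 and 0.63. Of 14 tested Polycomb complex 1 genes, Cbx8 differed by -1.72 and -1.23 but was not well above background on replicate 1 and differed by -0.04 with normexp, and the median of the list was 0.09. The 4 Polycomb complex 2 genes had a median of 0.06, led by Ezh1 at 0.73 and 0.18. Of the 3 tested cell cycle inhibitors, Cdkn2c, which encodes p18, differed by -2.32 on replicate 2. On replicate 1 it differed by -3.77, where its signal was too dim to be called above background, and with normexp by -1.29 on average. On replicates 1 and 2, Cdkn1a differed by -0.88 and -0.58, and Cdkn2a lay on opposite sides of Control, at 0.26 and -0.68. Among 3 bZIP relatives of Hlf, Nfil3 was lower by 2-fold on both arrays, at -2.68 and -1.09, with a median of -0.07 for the list. The others, Tef and Dbp, differed by -0.07 and 0.02 on average over both arrays.

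**Figure D3:**
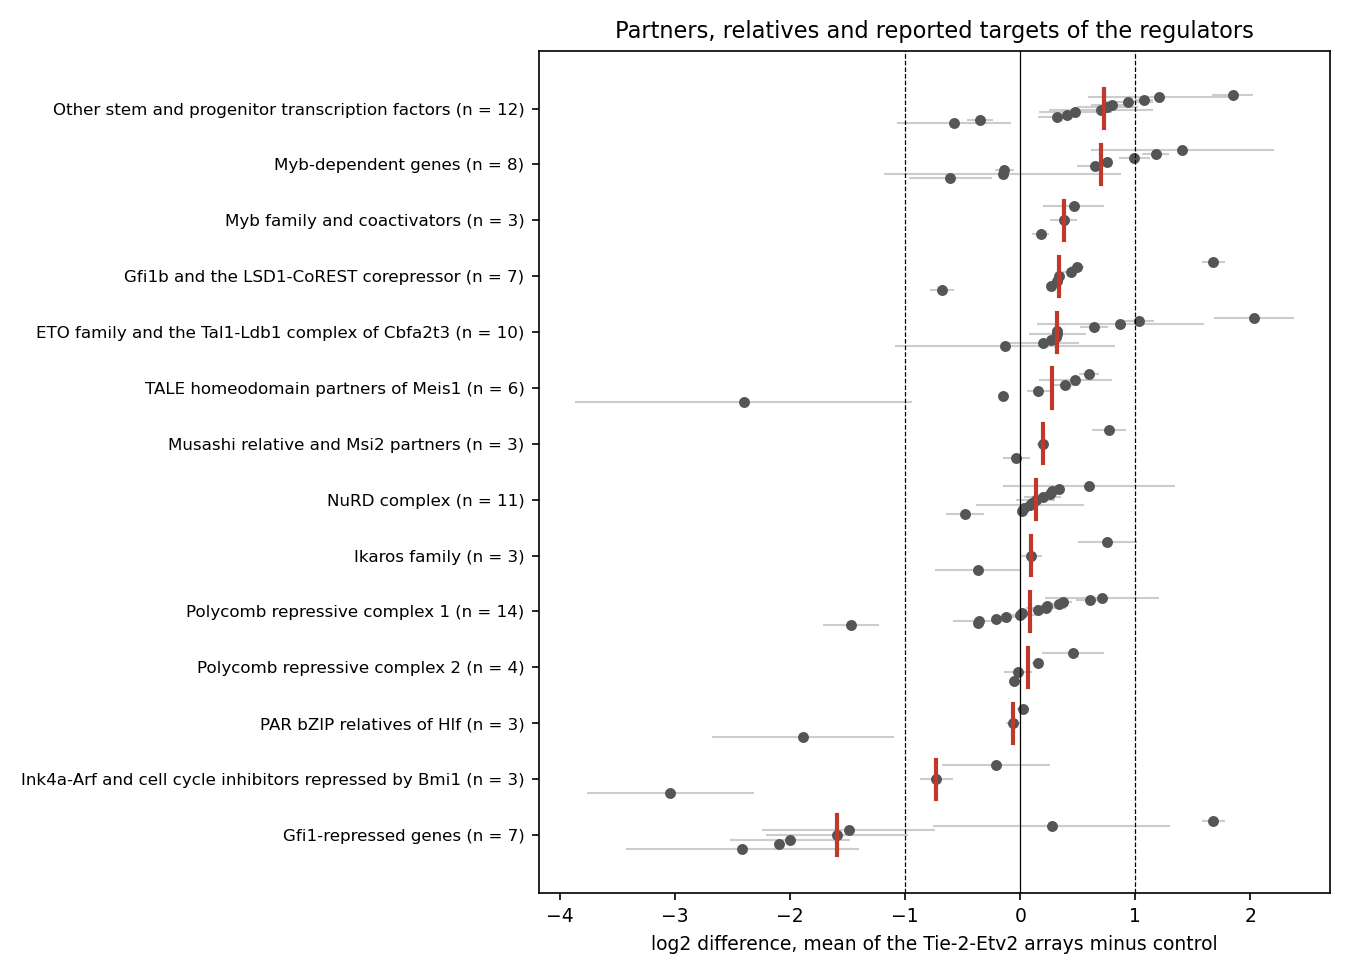
Log2 difference from Control for the tested genes of 14 lists of partners, relatives and reported targets (Prdm16, alone in its list, was not tested). Points are the mean of both Tie-2-Etv2 arrays, grey bars run between the arrays, red marks are list medians and dashed lines mark 2-fold; the list medians run from 0.73 for other stem and progenitor factors to -1.59 for genes reported as repressed by Gfi1.

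Markers of other cell types differed between the groups as well. For the counts below, 3.92% of all genes tested were 2-fold higher on both Tie-2-Etv2 arrays and 6.64% lower. Macrophage markers were 2-fold lower on both Tie-2-Etv2 arrays in 13 of 13 genes, and their summed signal, in multiples of the 75th percentile, was 5.09 and 17.9 in Tie-2-Etv2 cells against 80.9 in Control cells. Of these 13, 2 were not well above background on replicate 1 and 1 on replicate 2. Endothelial markers were 2-fold higher in 9 of 13, with sums of 52.5 and 26.1 in Tie-2-Etv2 cells and 11.0 in Control cells, where Sox17 and Sox18 were not well above background. Granulocyte and mast cell markers were 2-fold higher in 5 of 9 tested, with sums of 51.6 and 52.8 against 19.7 in Control cells. Of these 9, 3 were not well above background in Control cells. Sums add linear signal, so the brightest genes weigh most. Among endothelial markers that was Egfl7, with log2 levels of 5.39 and 4.42 in Tie-2-Etv2 cells and 3.06 in Control cells. Among granulocyte and mast cell markers it was Mpo, at 5.22 and 5.46 against 4.16. Median log2 differences were -4.15 for macrophage, 1.85 for endothelial and 1.41 for granulocyte and mast cell markers.

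Visceral endoderm, mesenchyme and erythroid cells should be removed by a sort for both VE-cadherin and CD45, but their markers were read too. Erythroid markers were 2-fold lower in 5 of 10 tested, at sums of 8.50 and 13.3 in Tie-2-Etv2 cells and 41.9 in Control cells. Visceral endoderm markers were 2-fold lower in 9 of 12, at 6.93 and 17.8 against 39.2. In that list 1 gene was 2-fold higher, Sox17, which is also counted among the endothelial markers. Mesenchyme markers were 2-fold lower in 6 of 9, at 0.204 and 0.145 against 1.47. Megakaryocyte markers were 2-fold higher in 3 and lower in 3 of 11, at 6.91 and 6.54 against 8.03. Of 12 lymphoid markers 7 were tested, with sums of 1.34 and 1.81 in Tie-2-Etv2 cells and 2.88 in Control cells. Not well above background on replicate 1 were 2 visceral endoderm, 2 mesenchyme, 2 megakaryocyte, 2 lymphoid and 1 erythroid marker. On replicate 2 this held for 2 mesenchyme and 1 lymphoid marker, and in Control cells for 1 marker each of visceral endoderm, mesenchyme and lymphoid cells. The 5 pan-leukocyte markers had sums of 31.0 and 29.6 in Tie-2-Etv2 cells and 31.9 in Control cells. The brightest of them was Coro1a, with log2 levels of 4.63 and 4.57 in Tie-2-Etv2 cells and 4.71 in Control cells. In sorted but bulk RNA, fewer cells of a type and less RNA per cell cannot be told apart, and the part of these shifts in the values of the regulators was not tested.

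The replicates did not lie equally far from Control. Of the 9 tested regulators 7 were further from Control on replicate 1 than on replicate 2, the exceptions being Cbfa2t3 and Msi2, and the share over all genes was 67.2%. Taken alone, replicate 1 had 4 regulators 2-fold higher (Meis1, Myb, Ikzf2 and Gfi1) and 1 lower (Hlf), where 9.06% of all genes were 2-fold higher and 11.3% lower. Replicate 2 had 4 higher (Meis1, Myb, Ikzf2 and Cbfa2t3) and 1 lower (Hlf), where 4.57% of all genes were higher and 8.35% lower.

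**Figure D4:**
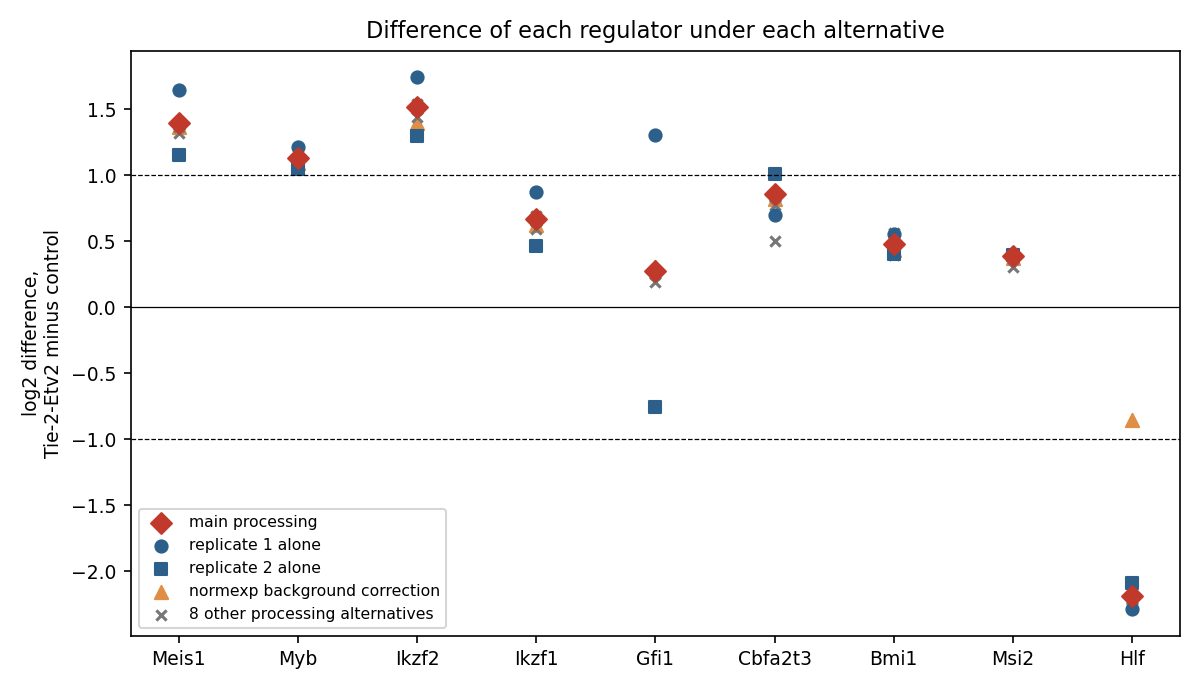
Log2 difference of each tested regulator under the main processing (red diamonds), with either Tie-2-Etv2 array alone (blue), with normexp background correction (orange triangles) and under 8 other processing alternatives (grey crosses); dashed lines mark 2-fold. Meis1, Myb and Ikzf2 stayed above 1 in all of them, Hlf was at -0.85 with normexp and at most -2.09 with each array alone, and Gfi1 was at 1.30 and -0.75 on the single arrays.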

How the data were processed

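Cy3-labelled RNA of 3 samples was read on 1-colour Agilent arrays of design 028005, all on 1 slide. Spot intensity values were extracted by the authors with Agilent Feature Extraction (10.7 per the submitters' processing notes, 10.7.3.1 per the file headers), which subtracted background, per the file headers, without scaling between arrays. A table of log2 values was deposited as well. Its scale and centring are not stated, but its differences between arrays equalled those of the log2 intensity to within 0.01, apart from 1 constant per array, in 100% of 55668 probes, and every row had a median of 0 (column medians 0.136 and 0 for the Tie-2-Etv2 arrays and 0 for Control). It served as an alternative.

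Control spots and outlier spots were left out, no non-control spot was saturated, and log2 signals of a probe's spots were averaged. As under 50% of probes were detected on each array, the 75th percentile was taken over the 22764 probes detected on all 3. A probe was tested if detected in Control or in both Tie-2-Etv2 replicates (26214 probes, 19580 genes), with the brightest probe standing for a gene. limma 3.58.1 in R 4.3.3 (lmFit, eBayes, two-sided, Benjamini-Hochberg over probes) was used, and the fit was tested on simulated data. The smallest p of an exact permutation test, 1 array against 2, is 0.333. Probe coordinates are on mm9, per the file headers. Gene names were updated through RefSeq of GRCm38.p6: accessions named 26582 probes, symbols 2602 and synonyms 490, and 26007 kept their name. A gene counted as 2-fold apart where both Tie-2-Etv2 arrays differed from Control by at least 1 on the log2 scale in the same direction, which is a description without a test. Nothing says that the samples came from separate embryos or pools, so p-values measure a spread that may be technical.

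The regulators and gene lists were chosen with earlier results of these data known. Named from a list were up to 3 genes 2-fold apart with the largest smaller difference, or the 1 gene with the largest where none was. Normexp background correction, run with an offset of 50 intensity units, was an alternative. It took the mean spot signal and the median background signal as input, not the background-subtracted intensity. The others were 4 scalings including spike-in probes and the deposited table, other filters, a floor, the mean over probes and leaving out either Tie-2-Etv2 array.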

Additional observations from a re-analysis of the deposited data

How the results depend on the processing

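The Tie-2-Etv2 differences of Meis1, Myb, Ikzf2, Ikzf1, Cbfa2t3, Bmi1, Msi2 and Hlf kept their direction in all 11 alternatives run. Over these, Meis1 ranged from 1.15 to 1.64, Myb from 1.04 to 1.21, Ikzf2 from 1.29 to 1.74 and Hlf from -2.28 to -0.85. Many of the alternatives could not change the direction. The other filters and the floor left each of these regulators at its main value, as did the mean over probes for those read by 1 probe. Scaling to all probes or to spike-in probes, and the deposited table, shifted every gene alike. Leaving out an array restated the difference on the remaining array. None of the 9 regulators tested passed limma's adjusted test in any of the 9 alternatives with a test, where the smallest adjusted p was 0.073, for Ikzf2. Gfi1 reversed to -0.75 without Tie-2-Etv2 replicate 1 and was 1.30 without replicate 2 while Ikzf4 reversed to -0.25 with the mean over its probes, which disagreed. With normexp, Cbx8 differed by -0.04, Meis2 by -0.20, Cdkn2c by -1.29 and Csf1 by -1.31, all nearer to 0 than in the main processing. Normexp started from the mean spot signal and the median background signal, not from the background-subtracted intensity of the main processing. Its offset of 50 intensity units shrinks differences between dim signals. Shifts toward 0 and a lower count of genes 2-fold apart thus follow in part from that setting, and the size of that part was not tested. The number of regulators 2-fold apart was 3 with normexp, from which Hlf was missing, and 4 in the other processing alternatives. It was 5 with either array left out, where 2-fold was asked of the remaining array only, so the count could not fall. The median of the regulators was 0.46 and 0.88 with 1 array left out. Over all genes, 614 passed with normexp (248 higher, 366 lower) and 440 with no filter on dim probes (130 higher, 310 lower), against 0 otherwise; the prior degrees of freedom of limma were 20.1 with no filter and unbounded with normexp, against 2.92, and the cause was not tested. Genes 2-fold apart numbered 2067, 803 with normexp and 1095 with probes detected on all 3 arrays, where fewer genes were tested. With 1 array left out they numbered 2529 and 3978, under the same looser rule. A slide block could not be fitted because all arrays lay on 1 slide. No paired analysis was possible because the Control group has 1 array and no replicate number. Dim signal limits Mecom, Hlf and the variant 2 probes of Cbfa2t3.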
